A study of Mus musculus with 79 samples.

Results

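The genes described here are 10 enzymes and channels with which fat cells make triglyceride and supply its glycerol backbone: *Aqp7*, *Pck1*, *Gpd1*, *Gpam*, *Gpat3*, *Agpat2*, *Lpin1*, *Dgat1*, *Dgat2* and *Mogat2*. They were taken by gene symbol, 10 of 39063 features with a numeric gene ID, and all 10 were among the 14873 genes tested. Their levels came from bulk RNAseq of caudal vertebrae (CV), tail bones whose marrow is filled with constitutive bone marrow fat, of lumbar vertebrae (LV), whose marrow is red, and of inguinal white adipose tissue (iWAT), a subcutaneous fat depot. In total there were 79 libraries from 51 mice, 51 of CV, 18 of LV and 10 of iWAT.

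The mice, on a mixed SJLxC57BL6 background, are given as 4 to 5 months old in the series' design text, and wore an osmotic pump that delivered PBS or leptin at 100 ng per h into a brain ventricle (ICV) for 9 days. The paper's legends give ages that run somewhat older, among them those for male mice with insulin pellets. The methods describe single housing after surgery and pair feeding, so that food intake was matched. WT mice were BMAd-Pnpla2+/+, and cKO mice were BMAd-Pnpla2-/-, which lack the lipase ATGL in bone marrow adipocytes alone. Female WT mice with PBS (n = 5) and with leptin (n = 5) gave CV, LV and iWAT, female cKO mice (n = 4 and n = 4) gave CV and LV, and male mice gave CV alone (WT, n = 5 with PBS and n = 8 with leptin; cKO, n = 5 and n = 4). A further 11 male WT mice carried a subcutaneous insulin pellet during PBS (n = 5) or leptin (n = 6), and their mouse numbers form series of their own, so that the pellet and the series cannot be told apart. The labels number the samples as biological replicates, and CV, LV and iWAT samples of one number and group came from one mouse.

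Triglyceride is built on glycerol 3-phosphate. White adipocytes recycle little free glycerol, so they draw it from glycolysis by way of glycerol 3-phosphate dehydrogenase (*Gpd1*) or from pyruvate and lactate through glyceroneogenesis, with phosphoenolpyruvate carboxykinase (*Pck1*) at its committed step, while aquaglyceroporin 7 (*Aqp7*) lets glycerol leave the cell. Acyl chains are added by glycerol 3-phosphate acyltransferases (*Gpam* on mitochondria, *Gpat3* on the endoplasmic reticulum) and by 1-acylglycerol 3-phosphate acyltransferase 2 (*Agpat2*), lipin 1 (*Lpin1*) removes the phosphate, and diacylglycerol acyltransferases (*Dgat1*, *Dgat2*) add the last chain. *Mogat2* acylates monoacylglycerol and is best known in the gut.

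The authors deposited estimated counts and TPM, a level scaled to library size and transcript length. Total counts were 16100377 to 19364106 per CV library, 17638318 to 19100698 in iWAT and 28717516 to 29757254 in LV, and no member was at 0 in any library. Whole vertebrae hold other cells than fat. The summed TPM of 6 adipocyte markers was 8572 to 12118 in female WT CV with PBS, 63840 to 82119 in iWAT and 264 to 523 in LV, whereas 6 erythroid and myeloid markers summed to 257367 TPM or more in WT LV with PBS. The 7 skeletal muscle markers summed to 15117 to 67300 TPM in WT and cKO CV without insulin and passed 1000 TPM in 3 iWAT libraries (leptin replicate 2, PBS replicates 1 and 4). In bulk tissue, fewer cells of a type and less RNA per cell cannot be told apart. *Pnpla2*, the gene targeted in cKO mice, was at 251 ± 30.0 TPM in female WT CV with PBS (SD, n = 5) and 179 ± 58.4 TPM in cKO (n = 4), and at 191 to 294 and 135 to 209 TPM in males (n = 5 each), as a whole-tissue reading of a deletion in one cell type.

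iWAT of female WT mice with PBS held more of every member than CV of the same mice, and most members were in turn scarcer in LV. *Dgat2*, which joins the last acyl chain to diacylglycerol (chromosome 7, 99153663 to 99182713, GRCm38.p6, as all positions), averaged 1950 ± 239 TPM in iWAT, 105 ± 18.5 TPM in CV and 22.5 ± 2.16 TPM in LV (SD, n = 5 each). It was the most abundant member in iWAT, where *Gpd1* (1446 ± 172 TPM; chromosome 15, 99717587 to 99725014) and *Agpat2* (1435 ± 285 TPM; chromosome 2, 26593057 to 26604417) came next within their spread of each other. In CV the order of mean TPM was *Gpd1* (159 ± 49.8), *Dgat2* (105 ± 18.5), *Agpat2* (98.8 ± 23.4), *Dgat1* (48.4 ± 4.28), *Pck1* (31.6 ± 4.42), *Gpam* (29.0 ± 3.02), *Lpin1* (24.9 ± 1.63), *Aqp7* (15.3 ± 3.86), *Gpat3* (10.2 ± 2.40) and *Mogat2* (0.578 ± 0.519), with *Dgat2* and *Agpat2*, and *Pck1* and *Gpam*, closer together than 1 SD. LV had another order, led by *Agpat2* (63.5 ± 2.62 TPM) and *Dgat1* (46.7 ± 6.16 TPM), with *Mogat2* at 12.5 ± 0.522 TPM and *Aqp7* at 0.430 ± 0.126 TPM.

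The ratio of mean TPM between iWAT and CV was 28.6 for *Pck1* (chromosome 2, 173153073 to 173159274), 18.6 for *Dgat2* and 14.5 for *Agpat2*, but 4.04 for *Lpin1* (chromosome 12, 16535669 to 16653903) and 3.24 for *Gpam* (chromosome 19, 55067635 to 55127319). Between CV and LV it was 35.6 for *Aqp7* (chromosome 4, 41033074 to 41048237), 25.4 for *Pck1* and 18.9 for *Gpd1*, but 1.56 for *Agpat2* and 1.04 for *Dgat1* (chromosome 15, 76502012 to 76512021). In counts scaled by TMM, all 10 members were lower in CV than in iWAT (log2 fold changes -1.86 to -4.99; edgeR's quasi-likelihood test, adjusted p-value at most 9.80e-05), against 24.5% of all tested genes called lower and 26% higher. Called genes here had an adjusted p-value below 0.05 and a log2 fold change of at least 0.5 in size. The tissues came from the same mice, but the fits of CV against iWAT and LV did not take the mouse as a block.

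Against LV, 6 members were higher in CV (*Aqp7*, *Pck1*, *Gpd1*, *Gpam*, *Lpin1* and *Dgat2*, by 3.94, 3.54, 3.14, 1.92, 1.83 and 1.11 on the log2 scale), against 34.9% of tested genes. *Mogat2* and *Dgat1* were lower (-5.53 and -0.98), against 31.7%. *Agpat2* (-0.47) and *Gpat3* (0.47) were just under the fold threshold, which *Agpat2* passed without the mouse of replicate 2 (-0.60) and *Gpat3* without that of replicate 1 (0.55). The scale mattered for these tissues. On log2(TPM + 1) the median of all genes was 0.87 higher in CV than in LV (9854 genes called higher and 1566 lower, against 5184 and 4714 in counts). There *Dgat1* was level (0.06), and *Agpat2* was higher in CV (0.60) instead of lower.

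**Figure D1:**
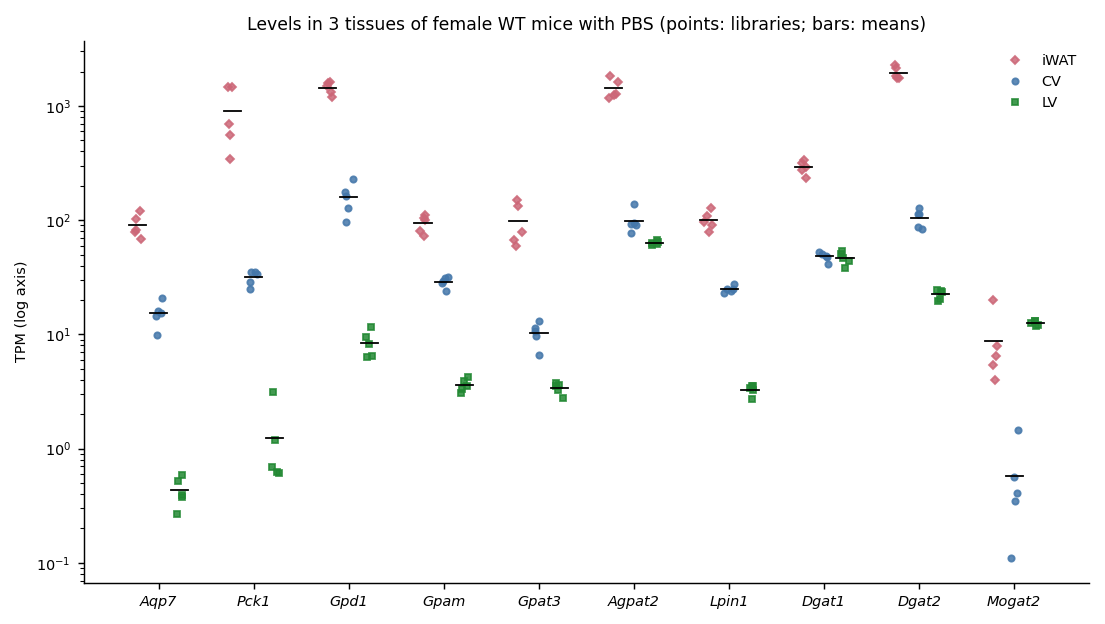
TPM of the 10 genes (log axis) in the 5 iWAT, 5 CV and 5 LV libraries of female WT mice with PBS; points are libraries and bars are means. The iWAT points lie above the CV points for every gene, and LV is lowest for all but *Mogat2*, whose LV libraries (11.84 to 13.02 TPM) sit above all CV libraries (0.11 to 1.46 TPM), and *Dgat1*, whose CV and LV libraries overlap.

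*Mogat2* (chromosome 7, 99219084 to 99238611) lies 36370 bp from *Dgat2*, yet its pattern was the opposite in bone, with at least 592 counts per LV library and 2 to 26 per CV library of the same mice. It made up 98.9% ± 0.598 of the summed TPM of *Mogat1* and *Mogat2* in LV and 17.3% ± 10.6 in iWAT (SD, n = 5 each). Other steps also had different gene shares in LV, read in whole vertebrae. The part of each cell type in these shares was not tested. *Lpin1* made up 85.8% ± 3.72 of the summed lipin TPM in iWAT, 64.5% ± 4.07 in CV and 21.2% ± 1.41 in LV, where *Lpin2* held 75.6% ± 1.57. *Pck1* made up 96.4% ± 2.20 of the summed *Pck1* and *Pck2* TPM in iWAT, 66.7% ± 2.60 in CV and 3.89% ± 2.81 in LV, *Pck2* being the mitochondrial form. *Aqp7* made up 97.5% ± 0.981 of the aquaglyceroporins *Aqp3*, *Aqp7* and *Aqp9* in iWAT and 92.1% ± 2.33 in CV, but 2.99% ± 0.796 in LV, where *Aqp9* held 96.3% ± 0.781.

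Promoter sequence is shown for 3 members whose levels behaved differently below, *Pck1*, *Aqp7* and *Agpat2*, as the 250 bases before the start site on the gene's strand (RefSeq, GRCm38.p6). RefSeq windows were at hand for 6 members (*Agpat2*, *Aqp7*, *Gpam*, *Gpat3*, *Lpin1* and *Pck1*). The *Pck1* window is chr2:173152823-173153072 (plus strand), with capitals on ACGTCA, the core of a cyclic AMP response element:
Pck1: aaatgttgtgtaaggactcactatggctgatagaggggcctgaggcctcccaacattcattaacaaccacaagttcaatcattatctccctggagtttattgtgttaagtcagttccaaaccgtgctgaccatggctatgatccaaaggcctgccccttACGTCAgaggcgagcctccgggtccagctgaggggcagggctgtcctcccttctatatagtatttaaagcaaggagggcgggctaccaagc
The first of 2 *Aqp7* windows is chr4:41048137-41048386 (minus strand), with capitals on AGGTCA, a nuclear receptor half-site, read on the reverse strand:
Aqp7: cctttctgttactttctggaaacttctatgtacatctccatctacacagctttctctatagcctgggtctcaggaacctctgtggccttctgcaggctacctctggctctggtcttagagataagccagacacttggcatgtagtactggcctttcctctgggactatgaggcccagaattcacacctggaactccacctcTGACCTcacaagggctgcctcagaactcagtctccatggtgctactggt
The *Agpat2* window is chr2:26604418-26604667 (minus strand), with capitals on 2 overlapping GGGCGG boxes:
Agpat2: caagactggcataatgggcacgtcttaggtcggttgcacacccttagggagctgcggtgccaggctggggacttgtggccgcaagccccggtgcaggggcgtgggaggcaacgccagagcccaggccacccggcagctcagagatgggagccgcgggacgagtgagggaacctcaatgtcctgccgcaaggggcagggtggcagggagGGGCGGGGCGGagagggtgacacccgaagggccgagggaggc
Motifs were searched on both strands. In *Pck1* the longer word TTACGTCA ended at -86 from the start site and overlapped the ACGTCA, which began at -91. TTACGTCA was in 0.447% of 32851 windows of the same length and in no other member's, and ACGTCA was in 6.47%, among them 1 *Gpam* window and the *Gpat3* window. AGGTCA was in 14% of windows (4607), at -49 to -44 in the *Aqp7* window shown, and GGGCGG in 32.7%, at -42 to -37 and -37 to -32 in *Agpat2*. AGGTCA was also in the second *Aqp7* window, 1 *Gpam* window and the *Lpin1* window. GGGCGG was also in 1 *Gpam* window, in the *Gpat3* window and, left in small letters, in the *Pck1* window (-16 to -11). CACGTG, an E-box, was in 6.02% of windows and in none of the members' windows. A match describes letters and says nothing of binding.

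Leptin lowered *Dgat2* in CV of WT mice of both sexes. *Dgat2* was at 83.69, 87.89, 112.13, 112.75 and 127.62 TPM in female WT CV with PBS and at 33.66, 37.31, 43.89, 44.02 and 51.54 TPM with leptin. Every leptin library was below every PBS library. The fitted difference in log2 was -1.33 (standard error, SE, 0.17, edgeR's adjusted p = 0.00237). In male WT CV it was at 63.35, 67.04, 81.99, 85.66 and 88.04 TPM with PBS and at 28.04 to 53.27 TPM with leptin (median 36.26, n = 8). These groups did not overlap either, with a log2 difference of -1.11 (SE 0.14, adjusted p = 0.000804).

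*Dgat1*, the other enzyme of this step, was called in neither sex. It was at 41.65 to 53.11 TPM with PBS and 30.67 to 54.57 TPM with leptin in female WT CV, and at 33.21 to 44.27 and 38.37 to 67.13 TPM in males. The groups overlapped in both sexes, with log2 fold changes of -0.14 (SE 0.16, adjusted p = 0.631) and 0.20 (SE 0.13, adjusted p = 0.428). *Dgat2* went from 68.2% ± 2.77 to 48.7% ± 7.49 of the summed *Dgat1* and *Dgat2* TPM in females (SD, n = 5 each) and from 67.1% ± 2.47 (n = 5) to 44.6% ± 6.19 (n = 8) in males, without overlap between the groups. In LV the share was 30.6% to 38.8% with PBS and 26.5% to 32.2% with leptin.

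**Figure D2:**
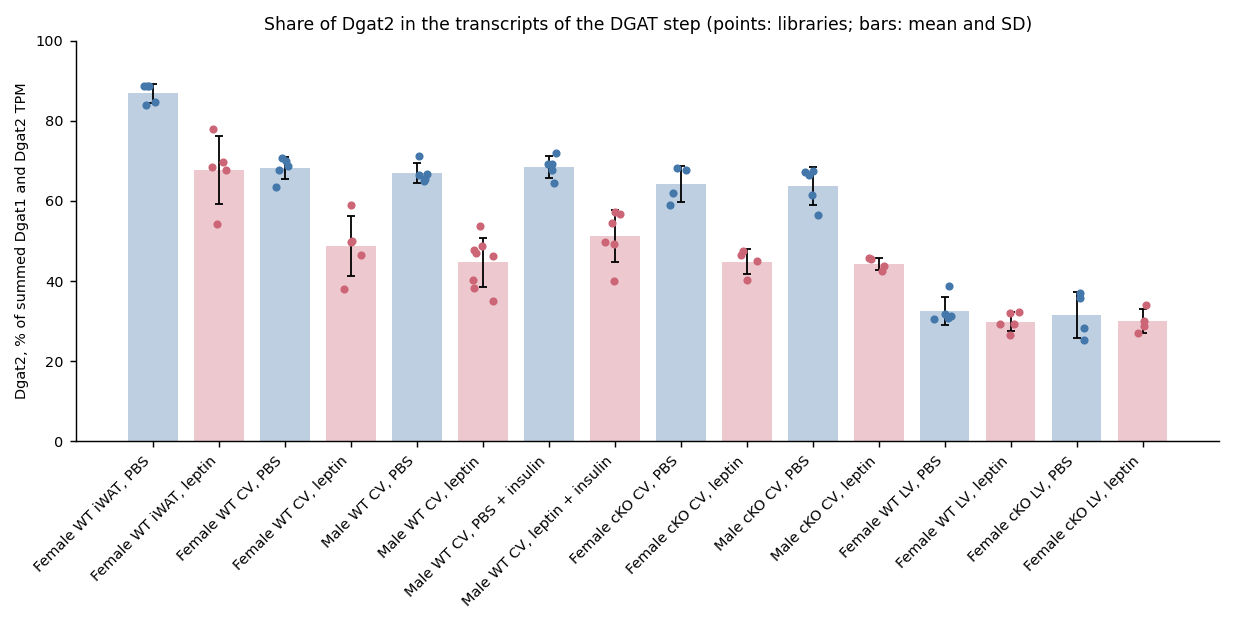
Share of *Dgat2* in the summed TPM of *Dgat1* and *Dgat2* (percent) in each of the 16 groups; points are libraries, bars the mean and error bars the SD. In CV and iWAT every leptin library lies below every PBS library of its sex, genotype and pellet group, whereas the LV groups overlap at 25.3% to 38.8%.

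*Agpat2*, which makes phosphatidic acid and whose loss causes congenital lipodystrophy, was at 76.64, 91.26, 93.00, 94.36 and 138.74 TPM in female WT CV with PBS and 53.62, 56.41, 60.80, 68.88 and 75.64 TPM with leptin. The groups were apart by 1 TPM at their nearest, and PBS replicate 2 stood above the rest. The log2 fold change was -0.67 (SE 0.18, adjusted p = 0.0405), a call that did not hold when any one of 8 of the 10 libraries was left out (log2 fold change -0.81 to -0.51, highest adjusted p = 0.0962; the 2 exceptions were leptin replicate 2 and PBS replicate 4). In male WT CV *Agpat2* was at 87.26 to 98.49 TPM with PBS and 52.18 to 90.73 TPM with leptin, where leptin replicate 5 lay inside the PBS range and replicate 6 (86.34 TPM) just under it (-0.54, SE 0.15, adjusted p = 0.0677). Without either of these 2 libraries it was called (adjusted p = 0.0306 and 0.0204).

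*Gpd1*, which makes glycerol 3-phosphate, and *Aqp7*, the glycerol channel, had lower mean values with leptin in both sexes. *Gpd1* was at 84.17, 89.72, 117.18, 139.63 and 162.79 TPM in male WT CV with PBS and at 43.85 to 92.94 TPM with leptin (median 57.83). All but 1 leptin library (replicate 5) were below the lowest PBS library, and the log2 fold change was -0.99 (SE 0.18, adjusted p = 0.00882). In female WT CV it was at 96.7 to 228.01 TPM with PBS and 44.57 to 148.48 TPM with leptin, with overlap (-0.84, SE 0.34, adjusted p = 0.141; -1.19 and adjusted p = 0.0236 without leptin replicate 2, the highest). *Aqp7* was at 9.86 to 20.65 TPM with PBS and 3.33 to 12.11 TPM with leptin in females (-0.71, SE 0.30, adjusted p = 0.166) and at 6.53 to 20.98 and 5.94 to 11.18 TPM in males (-0.79, SE 0.25, adjusted p = 0.108), again with overlap.

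In all, 2 members were called lower in female WT CV (*Agpat2* and *Dgat2*; 2.25% of tested genes were) and 2 in male WT CV (*Dgat2* and *Gpd1*; 0.914%), and none was called higher (2.78% and 0.834% were). The members whose groups did not overlap were *Agpat2* and *Dgat2* in females (2.75% of tested genes did not, in that direction) and *Dgat2* in males (0.84%). The median log2 fold change of the 10 members was -0.55 in females and -0.39 in males, beside -0.012 and 0.00051 for all tested genes. Neither enzyme of the first acylation was called. *Gpam* had log2 fold changes of -0.33 in females (SE 0.10, adjusted p = 0.0614) and -0.22 in males (SE 0.08, adjusted p = 0.124), and *Gpat3* (chromosome 5, 100845665 to 100899102) of -0.68 (SE 0.22, adjusted p = 0.0723; 0.0321 without leptin replicate 2, and 0.0257 in DESeq2) and -0.37 (SE 0.27, adjusted p = 0.515). *Mogat2* was at 0.1 to 1.46 TPM in WT CV without insulin, too low for a difference of its size (-0.43 and -0.41, SE 0.63 and 0.53) to be detected.

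With both sexes in 1 fit, 4 members were called lower in WT CV, and none higher, against 2.35% and 3.04% of tested genes: *Dgat2* (-1.20, SE 0.12, adjusted p = 2.03e-07), *Gpd1* (-0.92, SE 0.19, adjusted p = 0.00169), *Aqp7* (-0.75, SE 0.20, adjusted p = 0.0129) and *Agpat2* (-0.59, SE 0.12, adjusted p = 0.00151). Leaving out each of the 23 mice in turn ended none of these 4 calls. The *Aqp7* call was lost with the muscle marker score as a covariate, and with a block by replicate number. *Gpam* passed the p-value threshold with a change under 0.5 (-0.27, adjusted p = 0.00355). *Gpat3* was at -0.51 (adjusted p = 0.0676) and was called without female leptin replicate 2, male PBS replicate 4 or male leptin replicate 1 or 5 (adjusted p = 0.0418 to 0.0496). No member's leptin effect was called different between the sexes (0 of 10 in edgeR and in DESeq2, 1 with an unadjusted p-value below 0.05, *Lpin1*; 0% of all tested genes in edgeR). Of 27 other genes of the pathway, 26 were tested, and none was called in WT CV of either sex or of both. Among them were *Gpat4*, *Agpat1*, *Lpin2*, *Mogat1*, *Pck2*, *Gpd2*, the glycerol kinase gene *Gk* and the acyl-CoA synthetases.

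**Figure D3:**
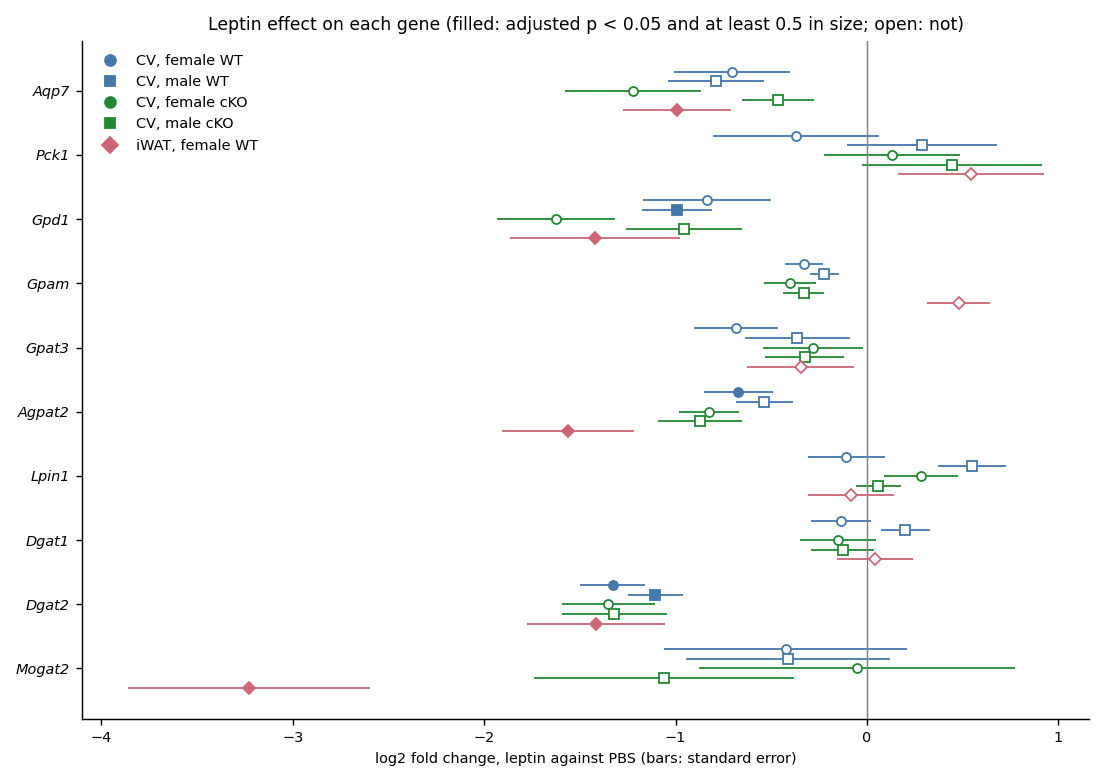
log2 fold change of each gene, leptin against PBS, with its SE, in 4 CV comparisons and in iWAT; filled symbols had an adjusted p-value below 0.05 and a size of at least 0.5. *Dgat2* lies between -1.11 and -1.42 in all 5 comparisons, *Dgat1* within 0.20 of 0, and *Gpam* left of 0 in CV but right of it in iWAT (0.48, open symbol).

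*Pck1* and *Lpin1* did not share this pattern. *Lpin1* was at 18.70, 22.09, 23.12, 26.43 and 27.73 TPM in male WT CV with PBS and at 24.14, 24.90, 25.55, 37.78, 39.07, 39.55, 40.80 and 53.94 TPM with leptin. The leptin libraries thus formed a low trio within the PBS range and 5 above it, with a log2 fold change of 0.55 (SE 0.18, adjusted p = 0.113; adjusted p = 0.0349 in DESeq2). *Pck1* was at 16.81 to 53.45 TPM with PBS and at 16.09, 20.92, 25.65, 26.03, 27.78, 51.95, 67.73 and 73.49 TPM with leptin (0.29, SE 0.39, adjusted p = 0.745). The 3 highest were leptin replicates 6, 7 and 8, which are the 3 leptin mice of the higher-numbered of 2 series of mouse numbers.

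Within that series the leptin minus PBS difference in mean log2(TPM + 1) was 1.19 for *Pck1* and 1.03 for *Lpin1* (3 and 2 mice), whereas within the lower-numbered series it was -0.34 and 0.23 (5 and 3 mice). *Dgat2* differed by -1.0 and -1.09 in the same subsets, and *Gpd1* by -1.22 and -0.74. In female WT CV, *Pck1* was at 25.13 to 34.99 TPM with PBS and at 9.13, 10.96, 17.02, 23.60 and 67.68 TPM with leptin. Leptin replicate 3 was above all PBS libraries and the other 4 below them (-0.37, SE 0.43, adjusted p = 0.64; without replicate 3 -1.04, adjusted p = 0.0339), and the same library was highest for *Lpin1* (42.06 TPM, beside 16.80 to 22.67 TPM). By series, leptin minus PBS in these females was -1.31 for *Pck1* and -0.43 for *Lpin1* in the lower-numbered series (2 and 3 mice). It was -0.17 and 0.08 in the higher-numbered one (3 and 2 mice). In cKO CV of both sexes *Pck1* was not called (0.28, SE 0.32, edgeR's adjusted p = 0.674), and male leptin replicate 4 was at 84.75 TPM. Over the 51 CV libraries the log2 levels of *Pck1* and *Lpin1* had a Pearson r of 0.51, and those of *Pck1* and *Dgat2* of 0.17, given as a description across libraries of all groups.

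**Figure D4:**
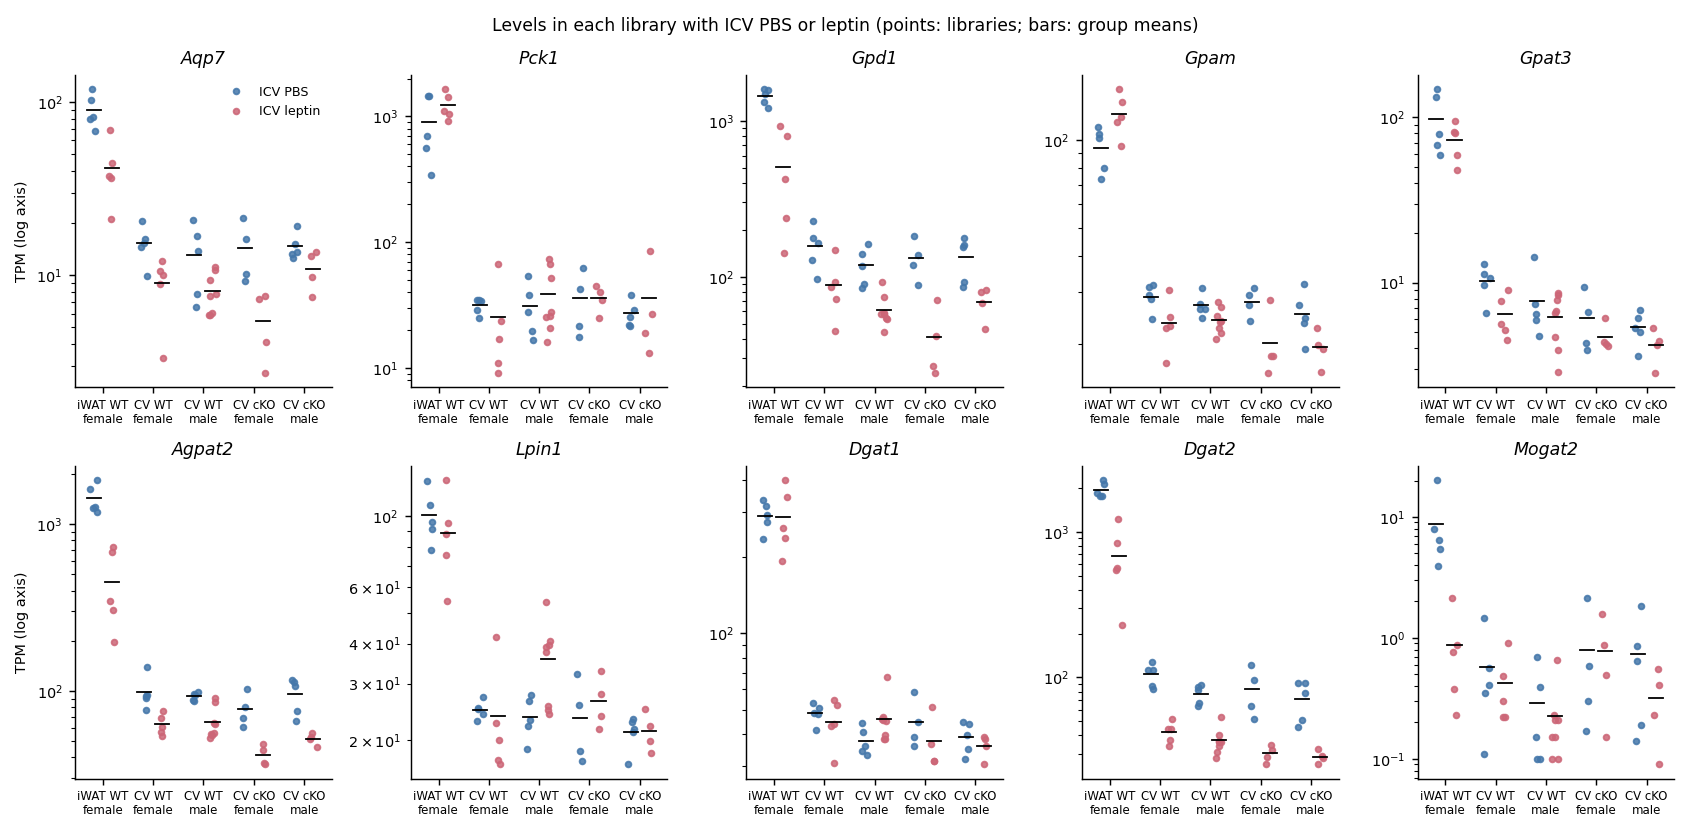
TPM of each gene (log axis) in every library of 5 pairs of groups, ICV PBS in blue and ICV leptin in red; points are libraries and bars are group means. *Dgat2* separates by treatment in all 5 pairs, whereas for *Pck1* in male WT CV the leptin libraries run from 16.09 to 73.49 TPM across the PBS range of 16.81 to 53.45 TPM.

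Leptin was also compared with PBS in CV of cKO mice, which lack ATGL in marrow adipocytes. *Dgat2* was at 51.65, 63.23, 96.62 and 122.22 TPM in female cKO CV with PBS and at 25.63, 28.33, 31.86 and 34.50 TPM with leptin, and in males at 45.47, 50.68, 78.69, 91.29 and 91.41 TPM and at 25.30, 27.88, 28.80 and 32.25 TPM. Neither sex showed overlap. Its log2 fold changes were -1.35 (SE 0.25, adjusted p = 0.103) and -1.32 (SE 0.27, adjusted p = 0.0904). edgeR called 0 members in either sex, with 5 at an unadjusted p-value below 0.05 in each (*Agpat2*, *Dgat2*, *Gpam*, *Gpd1* and *Aqp7*), and called 0.0269% and 0.101% of all tested genes lower, and 0% and 0.0874% higher. DESeq2 called 3 in each (*Agpat2*, *Dgat2* and *Gpd1*, adjusted p = 6.80e-05 and 0.00021 for *Dgat2*). It called 219 and 214 of all 14873 tested genes, 142 and 111 of them lower. In edgeR, *Gpd1* was called in females without leptin replicate 2 (-1.95, adjusted p = 0.0454) and *Dgat2* in males without PBS replicate 1 (-1.47, adjusted p = 0.044). In females 4 members had leptin libraries wholly below the PBS libraries (*Agpat2*, *Dgat2*, *Gpd1* and *Aqp7*), as 3.62% of tested genes did, and in males 3 (*Agpat2*, *Dgat2* and *Gpd1*), against 1.82%.

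With both sexes in 1 fit, the 4 members called lower in cKO CV were *Dgat2* (-1.34, SE 0.19, adjusted p = 0.00112), *Gpd1* (-1.28, SE 0.24, adjusted p = 0.00609), *Agpat2* (-0.86, SE 0.14, adjusted p = 0.00271) and *Aqp7* (-0.82, SE 0.22, adjusted p = 0.0493), against 1.26% of tested genes lower and 0.746% higher. *Aqp7* was at the threshold, and its call ended when any one of 12 of 17 mice was left out (-0.90 to -0.68, highest adjusted p = 0.106): female PBS replicates 1 to 4 and leptin replicates 2 to 4, and male PBS replicates 3 to 5 and leptin replicates 2 and 3. Series of mice were uneven over the cKO groups, some male leptin mice having no PBS mouse in theirs. In males of the lower-numbered series, leptin minus PBS in mean log2(TPM + 1) was -0.72 for *Dgat2* and -0.40 for *Gpd1* (1 and 2 mice). For *Agpat2* and *Aqp7* it was -0.34 and 0.05. In the highest-numbered series these were -1.61, -0.99, -1.10 and -0.64 (1 and 3 mice). In females all 4 were lower in each series compared. With the series as a covariate, *Aqp7* alone of the 4 lost its call. The difference between the genotypes in the leptin effect was -0.13 for *Dgat2* (SE 0.22, adjusted p = 0.953), -0.25 for *Agpat2* (SE 0.20, adjusted p = 0.88) and -0.29 for *Gpd1* (SE 0.34, adjusted p = 0.932). No member was called for it by edgeR or DESeq2 or had an unadjusted p-value below 0.05, and both tools called 0% of all tested genes. With SEs of this size, the fits do not show the effects to be equal. Without leptin, cKO and WT mice gave 0 called members by either tool in female CV, male CV and female LV. In female CV 1 member had an unadjusted p-value below 0.05 in edgeR (*Gpat3*, -0.77) and 2 in DESeq2, and in the others none had by either tool. edgeR called 0% of tested genes in each, and DESeq2 called 47, 40 and 14 genes. The *Dgat2* share was 64.2% ± 4.56 with PBS and 44.8% ± 3.16 with leptin in female cKO CV (SD, n = 4 each), and 63.8% ± 4.78 (n = 5) and 44.3% ± 1.48 (n = 4) in males.

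Among the 26 other pathway genes, 3 were called lower in cKO CV of both sexes: *Acsl1*, the main long-chain acyl-CoA synthetase of fat (-0.59, SE 0.12, adjusted p = 0.0106), *Pcx*, pyruvate carboxylase, which feeds glyceroneogenesis (-0.72, SE 0.15, adjusted p = 0.013), and *Mogat1* (-1.85, SE 0.48, adjusted p = 0.0424), the last on 0 to 13 counts per cKO CV library.

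The markers of adipocytes themselves were lower with leptin in CV. All 6 (*Adipoq*, *Cfd*, *Cidec*, *Fabp4*, *Plin1* and *Retn*) had a lower mean log2(TPM + 1) in each of the 4 CV pairs, and their average fell by 0.67 in female WT, 0.53 in male WT, 1.10 in female cKO and 0.69 in male cKO CV. *Plin1* differed by -1.35, -1.15, -2.56 and -1.07, and *Fabp4* by -0.35, -0.11, -0.36 and -0.21. Skeletal muscle markers also differed in WT mice, with a summed median of 40838 TPM with PBS and 15946 TPM with leptin in females (ranges 18942 to 42566 and 15117 to 37120) and 46516 and 31989 TPM in males (41226 to 50332 and 21900 to 42364). The 4 osteoblast markers summed to 2269 to 6205 TPM with PBS and 5097 to 15725 TPM with leptin in female WT CV, and the erythroid and myeloid markers to 2089 to 8316 and 4734 to 11673 TPM in male WT CV. The part of these cells in the results was not tested beyond the fits given here and, for muscle, in the closing section.

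With the average of the 6 adipocyte markers as a covariate, an alternative chosen after seeing the data, *Dgat2* in WT CV of both sexes had a log2 fold change of -0.99 (SE 0.14, adjusted p = 0.000111) and was still called. The values of the other 3 were -0.37 for *Agpat2* (adjusted p = 0.0888), -0.27 for *Gpd1* (adjusted p = 0.218) and 0.11 for *Aqp7* (adjusted p = 0.566). In cKO CV no member was called with that covariate (0 of 10, *Dgat2* -0.45), but only 2 of 14873 tested genes were, beside 914 in the WT fit. In cKO CV the marker average itself did not overlap between PBS and leptin. It was 8.40 to 9.34 and 7.56 to 8.00 in females, and 8.40 to 9.09 and 7.70 to 8.34 in males. That fit could therefore hardly separate leptin from the marker level. In WT CV too, the 6 markers were themselves lower with leptin. Their average can thus hold part of the leptin effect and is not a measure of adipocyte content alone. *Gpd1* followed *Plin1*, a marker in that average, with a Pearson r of 0.953 over the 51 CV libraries. How far adipocyte content sets the change in any one gene was not tested.

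**Figure D5:**
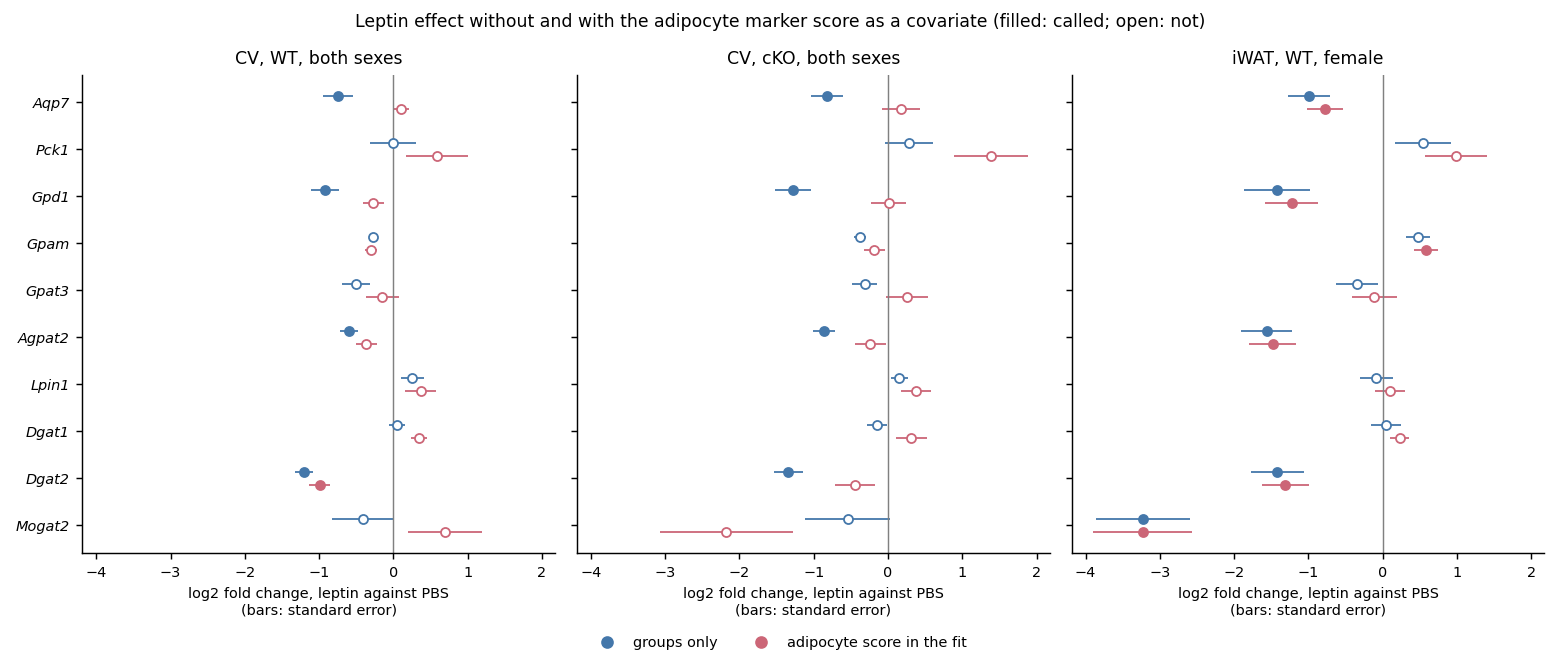
log2 fold change of each gene, leptin against PBS, with its SE, without (blue) and with (red) the average adipocyte marker level as a covariate, in CV of WT mice, CV of cKO mice and iWAT; filled points were called. In WT CV only *Dgat2* stays filled (-0.99), in cKO CV none does, and in iWAT all 5 blue filled genes stay filled and *Gpam* is added (0.58).

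In iWAT leptin lowered 5 members. *Dgat2* was at 1748.06, 1754.21, 1840.38, 2144.57 and 2265.08 TPM with PBS and at 227.93, 547.02, 565.17, 843.82 and 1215.69 TPM with leptin, with no overlap and a wide spread among leptin mice (-1.42, SE 0.36, adjusted p = 0.0163). *Agpat2* was at 1183.77 to 1838.96 TPM with PBS and at 196.59, 304.84, 346.82, 678.93 and 733.08 TPM with leptin (-1.56, SE 0.34, adjusted p = 0.00834). Leptin replicate 1 was lowest of all for both, as it was for *Gpd1*.

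*Gpd1* was at 1209.23 to 1613.98 TPM with PBS and at 143.00, 238.47, 427.31, 797.48 and 925.76 TPM with leptin (-1.42, SE 0.44, adjusted p = 0.0374). Its groups did not overlap, yet leaving out any one of 7 of the 10 libraries ended the call (highest adjusted p = 0.0829): leptin replicates 3 and 4 and each of the PBS replicates. *Aqp7* was at 68.39 to 119.24 TPM with PBS and 21.23 to 68.61 TPM with leptin, overlapping at 1 library (-0.99, SE 0.28, adjusted p = 0.0258; up to 0.0643 without leptin replicate 1, PBS replicate 4 or PBS replicate 5). *Mogat2* was at 3.95, 5.44, 6.47, 7.91 and 20.18 TPM with PBS and at 0.23, 0.38, 0.76, 0.87 and 2.14 TPM with leptin, the widest change of any member (-3.23, SE 0.63, adjusted p = 0.00485), on 5 to 45 counts per leptin library.

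Against these 5 stood 7.87% of tested genes called lower and 7.24% higher (1171 and 1077; on log2(TPM + 1) 1421 and 465), and 4 members did not overlap in that direction (*Agpat2*, *Dgat2*, *Mogat2* and *Gpd1*), against 14.3%. *Dgat1* was at 235.89 to 335.90 TPM with PBS and 191.99 to 401.23 TPM with leptin (0.04, SE 0.20, adjusted p = 0.902), so that *Dgat2* went from 86.9% ± 2.39 to 67.7% ± 8.52 of the pair (SD, n = 5 each). *Pck1* was at 343.96, 561.86, 700.23, 1455.32 and 1456.07 TPM with PBS and 922.60 to 1658.54 TPM with leptin. The 2 highest PBS libraries lay inside the leptin range (0.54, SE 0.38, adjusted p = 0.314), and both came from the higher-numbered series. *Lpin1* (-0.08, adjusted p = 0.814) and *Gpat3* (-0.35, adjusted p = 0.379) had overlapping groups. For *Gpat3* the leptin minus PBS difference in mean log2(TPM + 1) was 0.36 in the lower-numbered series of mice (2 and 3 mice) and -1.19 in the higher-numbered one (3 and 2 mice), and for *Pck1* it was 0.97 and -0.11. *Dgat2* (-2.24 and -1.28), *Agpat2* (-2.08 and -1.52) and *Gpd1* (-1.88 in both) were lower in each series.

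Of the 26 other pathway genes, 4 were called lower in iWAT with leptin. *Mogat1* was at 39.7 ± 3.41 TPM with PBS and 9.57 ± 6.17 TPM with leptin (SD, n = 5 each; -1.97, SE 0.39, adjusted p = 0.00516), *Pcx* at 1206 ± 93.2 and 526 ± 227 TPM (-1.10, adjusted p = 0.0168), *Acsl1* at 650 to 1331 and up to 728 TPM (-0.82, adjusted p = 0.0476) and *Fitm2*, which helps package triglyceride into droplets, at 87.8 ± 20.5 and 48.5 ± 10.5 TPM (-0.76, adjusted p = 0.0129).

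*Gpam*, the mitochondrial enzyme of the first acylation, was the member called for a difference between the tissues in the fit without the mouse as a block. It was at 73.37, 79.77, 101.08, 104.99 and 110.42 TPM in iWAT with PBS and at 95.44, 115.11, 119.72, 135.03 and 149.55 TPM with leptin. In CV of the same mice it was at 24.20 to 31.87 TPM with PBS and at 17.20 to 30.44 TPM with leptin. The iWAT groups overlapped at the lowest leptin library, and the log2 fold change there was 0.48 (SE 0.16, adjusted p = 0.0516; 0.54 and adjusted p = 0.029 without leptin replicate 1). The leptin effect was higher in iWAT than in CV by 0.77 (SE 0.20, adjusted p = 0.0153), against 4.68% of tested genes called in this direction and 6.64% in the other. Without the mouse of leptin replicate 4 the adjusted p-value was 0.0567. With the mouse as a block it was 0.00578, at 0.77. *Mogat2* (-2.85, SE 0.96, adjusted p = 0.0515; 0.0317 and 0.0222 without leptin replicate 5 or PBS replicate 3) and *Agpat2* (-0.92, SE 0.41, adjusted p = 0.14) had lower leptin effects in iWAT than in CV and were not called in that fit. CV and iWAT came from the same mice, and with the mouse as a block both were called, *Mogat2* at -2.90 (SE 0.79, adjusted p = 0.0305) and *Agpat2* at -1.09 (SE 0.28, adjusted p = 0.0247). limma on log2(TPM + 1) also called both (adjusted p = 0.00302 and 0.0407), and DESeq2 called *Mogat2* (adjusted p = 0.0137) but not *Agpat2* (adjusted p = 0.089).

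Cell markers moved in iWAT as well. Of the 6 adipocyte markers, 4 were lower with leptin (*Adipoq*, *Fabp4*, *Plin1* and *Retn*) and 2 higher (*Cfd* by 1.31 and *Cidec* by 0.62 in mean log2(TPM + 1)), and with their average as a covariate the same 5 members were called lower and *Gpam* higher (0.58, adjusted p = 0.031). The marker average differed by only -0.24 between leptin and PBS, as the markers went both ways. That fit is thus no check on adipocyte content. It called 1788 of 14873 tested genes. The erythroid and myeloid markers summed to 1477 to 2090 TPM with PBS and 238 to 1017 TPM with leptin; their part was not tested. Without the 3 muscle-rich iWAT libraries, a choice made after seeing the data, 3 members were called (*Agpat2*, -1.79; *Aqp7*, -1.25; *Mogat2*, -3.47), while *Dgat2* (-1.52, adjusted p = 0.0764) and *Gpd1* (-1.74, adjusted p = 0.0667) were not. Of 14873 tested genes, 1708 were called without these libraries.

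In LV, where adipocytes are scarce, no member was called with leptin in WT females (0 of 10 in edgeR, 3 with an unadjusted p-value below 0.05; 1 in DESeq2, *Gpd1*, -0.60, adjusted p = 0.00916) or in cKO females (0 by both tools, 0 unadjusted), beside 0% of all tested genes in edgeR. DESeq2 called 144 and 72 of the 14873 tested genes in WT and cKO LV. *Dgat2* was at 19.74 to 24.53 TPM with PBS and 19.54 to 27.77 TPM with leptin in WT LV (-0.01, SE 0.11), and *Agpat2* at 60.06 to 66.97 and 55.26 to 70.97 TPM. The 3 members at an unadjusted p-value below 0.05 were *Aqp7* (-1.09, at 0.15 to 0.59 TPM), *Gpd1* (-0.59, at 4.99 to 11.64 TPM) and *Mogat2* (0.16), whose leptin libraries (13.13 to 15.51 TPM) all lay above its PBS libraries (11.84 to 13.02 TPM), as 1.02% of tested genes did in that direction. The average of the adipocyte markers was 0.53 lower with leptin in WT LV as well, all 6 of them lower, and its part was not tested.

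The paper reports that insulin pellets raised circulating insulin in leptin-treated mice beyond that of controls, while blood glucose stayed low. Mice with pellets therefore had more insulin than controls, not a restored level. Between mice with and without pellets, the pellet and the series of mouse numbers cannot be told apart. Whether lower insulin under leptin bears on these genes was thus not tested, and the values below describe mice with pellets. *Dgat2* was at 75.29, 80.31, 80.69, 103.55 and 104.31 TPM with PBS and insulin and at 35.56, 39.89, 42.17, 43.87, 49.68 and 63.21 TPM with leptin and insulin, without overlap, as 2.29% of tested genes did in that direction (-0.91, SE 0.15, adjusted p = 0.00769; 0.417% of tested genes were called lower and 0.141% higher). Leptin and insulin replicates 4 to 6 (35.56, 43.87 and 39.89 TPM) came from a series without a PBS mouse, so there leptin and series cannot be told apart. Those in the series shared with the PBS and insulin mice were at 42.17, 49.68 and 63.21 TPM. Against PBS alone, leptin with insulin gave -0.81 (SE 0.15, adjusted p = 0.00846; 0.706% lower and 0.397% higher), and leptin alone gave -1.11 against the same PBS mice. No other member was called in either comparison. The summed adipocyte markers were at 7765 to 11518 TPM with PBS and insulin and 4472 to 10938 TPM with leptin and insulin. Its share of the pair was 68.6% ± 2.71 (SD, n = 5) with PBS and insulin and 51.3% ± 6.48 (n = 6) with leptin and insulin.

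Insulin added to leptin called no member (0 of 10 by edgeR and DESeq2; 0.141% of tested genes were called higher and 0.222% lower), and 4 had an unadjusted p-value below 0.05. These were *Dgat2* (0.30, SE 0.13, adjusted p = 0.263), *Gpd1* (0.48, SE 0.18, adjusted p = 0.189), *Lpin1* (-0.39, SE 0.14, adjusted p = 0.183) and *Pck1* (-0.84, SE 0.37, adjusted p = 0.254). *Lpin1* was at 23.55 to 31.15 TPM with leptin and insulin and 24.14 to 53.94 TPM with leptin alone, and *Pck1* at 7.50 to 44.75 and 16.09 to 73.49 TPM, with overlap in both. Insulin added to PBS called no member (0 by both tools, 0 unadjusted; 0% of tested genes in edgeR), and *Dgat2* differed by 0.11 (SE 0.16). The interaction of leptin and insulin called no member (0 by both tools, 0 unadjusted), beside 0% of tested genes in edgeR and 13 genes in DESeq2, with 0.19 for *Dgat2* (SE 0.21), 0.39 for *Gpd1* (SE 0.28) and -0.96 for *Pck1* (SE 0.56).

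Male and female WT CV with PBS did not differ in any member by test (0 of 10 by both tools, 0 unadjusted), while 3.5% of tested genes were called higher and 4.46% lower in males. On log2(TPM + 1) the median of all genes was 0.20 lower in males, so levels such as *Gpd1* at 159 ± 49.8 TPM in females and 119 ± 33.2 TPM in males are read against that shift.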

How the data were processed

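The authors deposited a table of estimated counts and a table of TPM values per gene for bulk RNAseq of 79 samples. The submitters' processing notes name HISAT, Bowtie2, GRCm38.p6 and GRCm39, without roles or versions. Counts not whole (51 values in 6 genes) were rounded. The 14873 genes that averaged 0.4 TPM or more were tested in edgeR 4.0.16 (quasi-likelihood, TMM, R 4.3.3) with Benjamini-Hochberg adjustment over all of them. Called genes had an adjusted p-value below 0.05 and a log2 fold change of at least 0.5 in size. The fits were checked on simulated counts, made without differences of series or cell type. There 1.60% to 4.81% of edgeR's calls and 5.71% to 8.65% of DESeq2's calls were false. Alternatives were DESeq2 1.42.0, limma 3.58.1 on log2(TPM + 1) or log2(TPM + 0.1), other filters, covariates and leaving out each mouse. Genes were named as members of the list of 10, and other pathway genes only where called. The members and lists were chosen with earlier results of these data known. Equal replicate numbers of PBS and leptin groups belong to different mice, and their libraries did not deviate together in every pair, whereas CV, LV and iWAT samples of one number came from one mouse. Positions and promoters are RefSeq's.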

Additional observations from a re-analysis of the deposited data

Results flagged for a closer look

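Of 160 sets of libraries examined (10 genes in 16 groups), 11 held a library far from the rest by Dixon's criterion at the 95% level, which chance alone gives in about 1 of 20 sets. In female WT CV these were *Agpat2* in PBS replicate 2 (138.74 TPM) and *Lpin1* and *Pck1* in leptin replicate 3 (42.06 and 67.68 TPM). In male WT CV they were *Gpat3* in PBS replicate 3 (14.3 TPM), *Dgat1* in leptin replicate 8 (67.13 TPM) and *Mogat2* in leptin replicate 2 (0.65 TPM). In female cKO mice they were *Gpat3* in CV leptin replicate 2 (6.07 TPM) and *Mogat2* in LV leptin replicate 1 (16.74 TPM). In female WT LV they were *Lpin1* in PBS replicate 4 (2.70 TPM) and *Pck1* in PBS replicate 5 (3.11 TPM), and in iWAT *Mogat2* in PBS replicate 2 (20.18 TPM).

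The leptin effect on *Gpam* differed between iWAT and CV of the same mice by 0.77 in log2 (SE 0.20, adjusted p = 0.0153, edgeR, without the mouse as a block).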

How the results depend on the processing

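Members called per comparison changed as follows. DESeq2 called 3 in female cKO CV (0 in edgeR), 5 in male WT CV (2), 3 in male cKO CV (0), 1 in WT LV (0) and 2 in the comparison of the leptin effect between iWAT and CV (1). Fitting all CV groups together called 4 in female cKO and 2 in male cKO CV. The muscle marker score as a covariate left 1 in female WT CV and gave 1 in male cKO CV. The adipocyte marker score left 1 in female WT CV, male WT CV and WT CV of both sexes and 0 in cKO CV of both sexes (2 of all tested genes). Without the muscle-rich libraries 3 were called in iWAT. limma called 3 members for the difference between tissues on either scale. The replicate block called 1 in male WT CV, 2 in cKO CV of both sexes and 3 for the tissue difference, where it stands for the mouse, and changed no other count of members past 1.5 times. Marker scores and muscle-rich libraries were chosen after seeing the data. Leaving out each mouse gave 1 to 4 members in female WT CV, 2 to 3 in male WT CV, 0 to 1 in each cKO sex, 4 to 5 in WT and 3 to 4 in cKO CV of both sexes, 3 to 5 in iWAT, 0 to 2 for the tissue difference and 8 to 9 in CV against LV.

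Among called members, signs turned with the adipocyte score for *Aqp7* (0.11) in WT CV, and *Gpd1* (0.0068) and *Aqp7* (0.17) in cKO CV, of both sexes. Among members not called, they also turned for *Mogat2* (0.70) and *Pck1* (0.59) in WT CV and *Dgat1* (0.32) and *Gpat3* (0.26) in cKO CV. On the TPM scale they turned for *Agpat2* (0.60 and 0.61) and *Dgat1* (0.056 and 0.057) in CV against LV. The cause of these changes was not tested.

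Counts of all called genes moved past 1.5 times in several comparisons. In female cKO CV 4 became 219 with DESeq2, 507 with all CV groups together, 13 with the block and 7 with the muscle score. In male WT CV 260 became 464 with DESeq2, 418 with all CV groups, 416 with the mouse series and 65 with the block. In male cKO CV 28 became 214, 44, 13 and 14 under these settings and 56 with the muscle score. In WT CV of both sexes 801 became 518 with limma on log2(TPM + 1). WT LV went from 0 to 144 with DESeq2 and 78 with the series (also up with both genotypes together), and cKO LV from 0 to 72 with DESeq2. DESeq2 gave 47, 40 and 14 for cKO against WT, where edgeR gave 0. Insulin with leptin went from 54 to 174 with DESeq2, 211 with the muscle score and 16 and 12 with limma, leptin with insulin from 83 to 229, and both against PBS from 164 to 269 with DESeq2 and 97 with limma on log2(TPM + 1). The split of higher and lower genes in the tissue difference was 696 and 987, and 369 and 1291 on log2(TPM + 1).

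Depth limited *Mogat2* in CV, at 1 to 26 counts per WT library.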

Other observations

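Over the 51 CV libraries, the genes whose log2 levels went most closely with a member differed by member, given as Pearson correlations across libraries of all groups with no test. For *Dgat2* they were *Mgll*, the monoacylglycerol lipase (0.942), *Lep*, leptin itself (0.931), and *Crtac1* (0.931). For *Gpd1* they were *A530016L24Rik* (0.954), the droplet protein gene *Plin1* (0.953) and *Lipe*, hormone-sensitive lipase (0.922), and for *Aqp7* they were *Lgals12* (0.901), *Lipe* (0.893) and *Plin1* (0.871). *Dgat1* went with *Apmap* (0.793), *Pck1* with *Tcim* (0.762) and *Lpin1* with the phosphodiesterase gene *Pde4d* (0.855). *Mogat2* went with the myeloid genes *Fcnb* (0.879), *Abca13* (0.869) and *Epx* (0.867). With *Adipoq* the correlation was 0.836 for *Gpd1*, 0.802 for *Dgat2*, 0.665 for *Agpat2* and -0.153 for *Lpin1*.

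Members also took other shares of their step with leptin in female WT mice. In CV *Pck1* was 66.7% of the summed *Pck1* and *Pck2* TPM with PBS and 49.4% with leptin, and *Gpd1* was 79.0% and 67.9% of its step. *Pck1* itself ran from 9.13 to 67.68 TPM in these leptin libraries and was not called. Its mean in male WT CV was 31.2 TPM with PBS and 38.7 TPM with leptin. In iWAT *Agpat2* was 87.8% and 70.7% of the AGPAT step and *Gpam* 32.8% and 43.7% of the GPAT step. These shares are descriptions and were not tested.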
